A study of Mus musculus with 8 samples.

Results

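The genes described here are 7 transcription factor genes of V1 interneurons: En1, Foxd3, Foxp2, Foxp4, Otp, Sp8 and Nr5a2. They were chosen by name, each symbol was matched to its Ensembl mouse gene identifier, and all 7 were found among the 38355 genes counted. RNA was sequenced from C57Bl6 mouse embryos at E11.5, a mid-gestation stage, from thoracic dorsal root ganglia dissected along with their spinal cord. The study compared 4 libraries of wild-type embryos (WT) with 4 libraries of Prdm12-/- embryos (KO), which lack the zinc-finger factor Prdm12. The labels give no further allele or treatment in either group, do not say which part of Prdm12 was deleted, and do not say whether a library is an embryo or a pool. Triplicates are mentioned in the series design, but 4 libraries carry each genotype and all 8 entered the comparison.

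V1 neurons are inhibitory interneurons of the ventral spinal cord that arise from the p1 progenitor domain, between the p0 domain, which gives V0 neurons, and the p2 domain, which gives V2 neurons. Prdm12 is expressed in p1 progenitors as well as in developing sensory neurons. En1 marks V1 neurons as they leave the cell cycle, and later factors such as Foxp2, Otp, Sp8 and Nr5a2 mark subsets of them. V1 neurons include Renshaw cells and many neurons that inhibit motor neurons and shape the speed of locomotion. Most of these factors are also used elsewhere, Foxd3 in the neural crest and En1 in the dermomyotome, the ventral ectoderm and the midbrain, and in bulk tissue fewer cells of a type cannot be told apart from less RNA per cell.

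The library totals lay between 23088908 and 28500792 counts in 7 libraries, while the deepest, WT replicate 1, reached 67782435 counts (2.55 times the median of the other 7). WT replicate 1 also stood apart in the V1 genes: it was the lowest of the 4 WT libraries for 6 of the 7 members and the highest for the other member, Sp8, against 34.1% and 32.0% of all tested genes that were lowest or highest there. Prdm12 was at 22.2 to 39.6 CPM (counts scaled to a common library total of 1000000) in WT and 0.962 to 1.55 CPM in KO (log2 fold change −4.70, edgeR adjusted p = 0.000124). Markers of the labelled tissue were present in every library, with 268 to 422 CPM summed over 7 sensory neuron genes and 49.8 to 64.6 CPM over 4 motor neuron genes. Values below are CPM, and a gene counts as changed at an adjusted p under 0.05 in edgeR's quasi-likelihood test with Benjamini-Hochberg adjustment over all 16068 genes tested.

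Of the 7 V1 factors, all of which passed the filter on low counts, Foxd3 fell in KO, none rose and 6 did not pass the test. Over all tested genes, 0.243% were called lower and 0.056% higher. En1 was lower by a similar amount but varied more within WT and missed the threshold. The other 5 members had smaller differences, between −0.31 and 0.06 on the log2 scale. The median log2 fold change (KO over WT) of the 7 was −0.15, against −0.003 over all tested genes. It was −0.31 without WT replicate 1 and −0.33 with limma-voom. In each of these fits the median was the value of Nr5a2, the member with the fewest counts. At an unadjusted p under 0.05, 2 members were lower (3.32% of all genes) and 0 higher (3.03% of all genes).

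Which members were called depended on the fit. DESeq2 and limma-voom each called 2 members lower, En1 and Foxd3, and 0 higher, where DESeq2 called 0.32% of its genes lower and 0.077% higher and limma-voom 0.635% and 0.143%. Foxd3 alone was called with library totals or upper quartile scaling (0.212% of genes lower and 0.056% higher in each), with no low-count filter (0.223% and 0.05%) and with a filter of 1 CPM in 4 libraries (0.252% and 0.0559%). With a block on replicate number 0 members were called (0.0871% of genes lower and 0.0124% higher). Without WT replicate 1, 2 members were called lower (0.69% of genes lower and 0.129% higher). Without WT replicates 2, 3 and 4 in turn, 0 members were called, and 0.166%, 0.111% and 0.0864% of genes were lower and 0.0185%, 0.0308% and 0.0185% higher. Without KO replicates 1 to 4 in turn, 0 members were called, and 0.154%, 0.0986%, 0.0739% and 0.0862% of genes were lower and 0.0308%, 0.0247%, 0.0185% and 0.0185% higher.

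**Figure D1:**
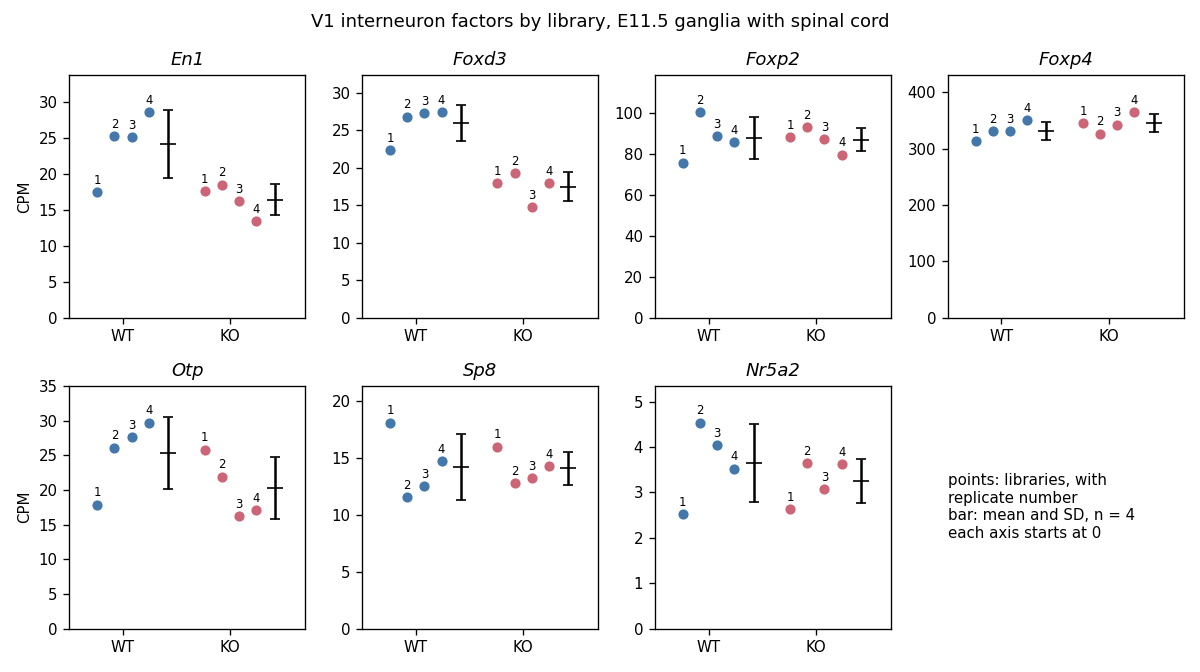
CPM of each V1 factor (vertical axes, starting at 0) in the 4 WT libraries (blue) and the 4 KO libraries (red), labelled by replicate number, with the mean and SD (n = 4) as black bars. Foxd3 shows no overlap between groups, with 14.7 to 19.3 CPM in KO and 22.3 to 27.5 CPM in WT, and WT replicate 1 of En1 (17.4 CPM) lies among the KO libraries.

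En1 (ENSMUSG00000058665, mm10 chromosome 1, 120602418 to 120607992, plus strand) encodes the homeodomain repressor engrailed 1, which defines the V1 class. In replicate order, the WT libraries had 17.4, 25.2, 25.0 and 28.6 CPM of En1, and the KO libraries 17.5, 18.5, 16.2 and 13.4 CPM. WT replicates 2 to 4 were all above every KO library, whereas WT replicate 1 lay between KO libraries, so the groups overlapped. WT libraries averaged 24.1 ± 4.70 CPM and KO libraries 16.4 ± 2.19 CPM (n = 4 each, SD). The log2 fold change was −0.54 (SE 0.15, edgeR adjusted p = 0.393, unadjusted p = 0.00455), a level in KO of 0.686 times that in WT. Without WT replicate 1 the log2 fold change was −0.67 and edgeR called En1 lower (adjusted p = 0.00698), in a fit that called 0.69% of all genes lower. DESeq2 and limma-voom with quality weights called it lower with all 8 libraries (adjusted p = 0.0305 and 0.0418), and over all the alternative fits the edgeR, DESeq2 or limma-voom adjusted p lay between 0.00039 and 1.00.

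Foxd3 (ENSMUSG00000067261, mm10 chromosome 4, 99656299 to 99658622, plus strand) encodes a forkhead repressor found in V1 neurons and in neural crest cells. The WT libraries, again in replicate order, had 22.3, 26.8, 27.3 and 27.5 CPM of Foxd3, and the KO libraries 17.99, 19.3, 14.7 and 17.9 CPM. Every KO library was below every WT library, as was the case for 2.45% of all tested genes, while 0 members had every KO library above every WT library (1.69% of all tested genes). Foxd3 fell in KO, averaging 25.98 ± 2.44 CPM over WT and 17.5 ± 1.93 CPM over KO libraries (n = 4 each, SD), with a log2 fold change of −0.57 (SE 0.09, edgeR adjusted p = 0.0303). DESeq2 gave an adjusted p of 2.01e-05 for Foxd3. With 7 libraries the edgeR call held without WT replicate 1 (adjusted p = 0.00286) and was lost when any other library was left out (adjusted p between 0.0517 and 0.139), with log2 fold changes between −0.63 and −0.49 in all 8 of these fits.

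The sequences just before En1 and Foxd3, the members with the largest differences, are printed here as RefSeq's promoter windows on GRCm38.p6 give them, cut where the RefSeq or GENCODE transcript starts, whichever comes first; 6 of the 7 members had a window there. The En1 window is chr1:120602237-120602417 on the plus strand, 181 bases long, and the Foxd3 window is chr4:99656049-99656298 on the plus strand, 250 bases long. Capitals mark matches on either strand to the E-box CACGTG, to the CCAAT box (ATTGG on the printed strand) and to the cAMP response element TGACGTCA.
En1: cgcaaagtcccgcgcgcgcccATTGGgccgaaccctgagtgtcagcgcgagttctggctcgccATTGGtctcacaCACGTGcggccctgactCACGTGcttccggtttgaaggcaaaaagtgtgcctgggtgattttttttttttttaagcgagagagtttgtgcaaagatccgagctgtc
Foxd3: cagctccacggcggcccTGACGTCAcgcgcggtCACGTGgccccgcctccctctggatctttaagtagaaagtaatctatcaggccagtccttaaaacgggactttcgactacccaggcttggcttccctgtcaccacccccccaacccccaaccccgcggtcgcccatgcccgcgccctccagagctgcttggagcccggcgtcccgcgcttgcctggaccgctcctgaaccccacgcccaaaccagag
The En1 window held 2 CACGTG matches, starting 106 and 89 bases before the annotated gene start, and 2 CCAAT matches, starting 160 and 118 bases before it. The Foxd3 window held 1 CACGTG match, 217 bases before the gene, and 1 TGACGTCA match, 233 bases before it. CACGTG occurred in 3.72% of 32851 RefSeq promoter windows cut to 181 bases and in 6.02% of those cut to 250 bases, CCAAT in 25.2% of the 181-base windows and TGACGTCA in 1.55% of the 250-base windows. All motifs were searched on both strands, none of the matches overlapped another, and neither window held TATAAA or TAATTA. These matches describe the letters and say nothing of which factor binds there.

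The nearest expressed neighbour of Foxd3 fell with it. Gm12688, a long non-coding RNA gene (chromosome 4, 99653607 to 99654983, minus strand), starts 1316 bp before Foxd3 on the other strand, so the pair points away from each other. In replicate order, Gm12688 had 16.5, 18.4, 20.4 and 20.4 CPM in the WT libraries and 10.01, 11.8, 9.78 and 7.34 CPM in the KO libraries, with no overlap between groups. Its log2 fold change was −0.95 (SE 0.13, edgeR adjusted p = 0.00987), and it missed the threshold when WT replicate 4 or KO replicate 3 was left out (adjusted p = 0.0511 and 0.0556). It also missed in edgeR with the replicate block (adjusted p = 0.0748) and once muscle and mesenchyme markers were a covariate (adjusted p = 0.875). In all, 13 annotated genes lay within 50 kb of a member or overlapped it, and 3 of them had a mean of at least 1 CPM: Gm12688, Mdfi near Foxp4 and Tbca near Otp. Mdfi and Tbca, at log2 fold changes of 0.12 and −0.06, did not pass the edgeR test (adjusted p = 0.782 and 0.955). The 3 annotated genes that overlap a member held at most 0.112 CPM in any library. How reads that overlap 2 genes were counted is not stated, so how many reads a member gained or lost there is unknown.

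Otp (ENSMUSG00000021685, chromosome 13, 94875602 to 94885130, plus strand), a homeobox gene of V1 subsets and of hypothalamic neurons, had 17.9, 26.1, 27.6 and 29.7 CPM in the WT libraries, in replicate order. The KO libraries had 25.8, 21.9, 16.2 and 17.1 CPM. The groups overlapped, with WT replicate 1 again low and KO replicate 1 close to WT replicate 2. The log2 fold change of Otp was −0.31 (SE 0.19, edgeR adjusted p = 0.873). It was −0.45 without WT replicate 1 and still did not pass (edgeR adjusted p = 0.450).

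The FOXP genes had overlapping groups and did not pass the test. Foxp2 (ENSMUSG00000029563, chromosome 6, 14901349 to 15441977, plus strand), a forkhead repressor found in a large V1 subset, had 75.9, 100.8, 88.8 and 85.9 CPM in the WT libraries and 88.5, 93.2, 87.3 and 79.8 CPM in the KO libraries, in replicate order. All 4 KO libraries lay within the WT range. Its log2 fold change was −0.01 (SE 0.08), and its sign turned in 4 alternatives, among them library totals and upper quartile scaling. Foxp4 (ENSMUSG00000023991, chromosome 17, 47867133 to 47924645, minus strand), a related forkhead gene expressed widely in the embryo, had 313, 330.3, 330.5 and 351 CPM over the WT and 345, 326, 342 and 365 CPM over the KO libraries. The ranges overlapped for 3 of the 4 KO libraries, with KO replicate 4 the highest of all. The log2 fold change of Foxp4 was 0.06 (SE 0.05), and neither FOXP gene passed the edgeR test (adjusted p = 0.999 and 0.926).

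Sp8 (ENSMUSG00000048562, chromosome 12, 118846329 to 118852576, plus strand), a zinc-finger factor of a V1 subset and of limb ectoderm, had 18.1, 11.55, 12.5 and 14.7 CPM in the WT libraries and 16.0, 12.8, 13.2 and 14.3 CPM in the KO libraries, in replicate order. Here WT replicate 1 was the highest library, and the KO libraries lay within the WT range. The log2 fold change of Sp8 was −0.03 (SE 0.13), and it turned positive in 6 alternatives, among them the fit without WT replicate 1 (0.13). Nr5a2 (ENSMUSG00000026398, chromosome 1, 136842571 to 136960448, minus strand), a nuclear receptor gene that marks another V1 subset, had 2.53, 4.54, 4.04 and 3.52 CPM over the WT and 2.64, 3.64, 3.07 and 3.63 CPM over the KO libraries, which rests on 73 to 170 counts a library. All KO libraries again lay within the WT range. The log2 fold change of Nr5a2 was −0.15 (SE 0.19), between −0.31 (without WT replicate 1) and −0.03 (without WT replicate 2) with 1 library left out, and −0.68 with muscle and mesenchyme markers as a covariate. Neither gene passed the edgeR test (adjusted p = 0.994 for Sp8 and 0.956 for Nr5a2).

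**Figure D2:**
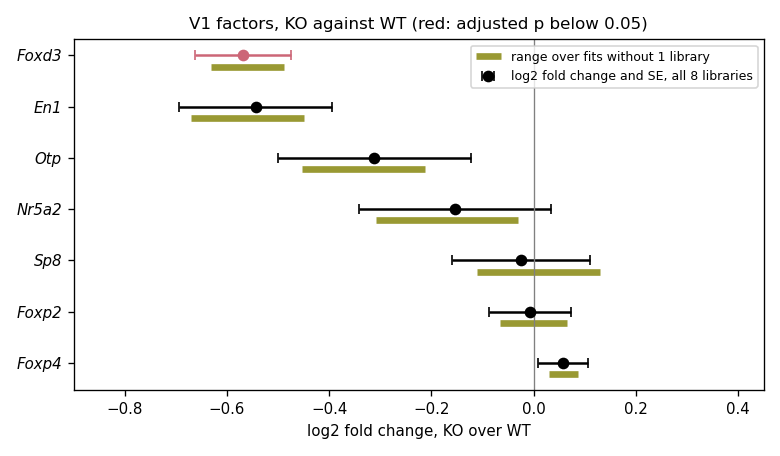
Log2 fold change of each V1 factor, KO over WT, with its SE from the fit to all 8 libraries (points), and the range over the 8 fits that each leave out 1 library (bars below). Foxd3 (red, −0.57) and En1 (−0.54) lie furthest below 0 and keep their sign in every such fit, while the ranges of Sp8 and Foxp2 cross 0.

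Levels of different genes can be compared only per length, so CPM were divided by each gene's exon length in GENCODE M21 (RPKM, here CPM per kilobase of exon). In WT the order was Foxp4 at 67.2 ± 3.13, Foxd3 at 11.2 ± 1.05, En1 at 9.17 ± 1.79, Otp at 8.79 ± 1.803, Foxp2 at 5.38 ± 0.626, Sp8 at 3.12 ± 0.639 and Nr5a2 at 0.620 ± 0.146 RPKM (SD, n = 4 each). Foxd3 stood above En1 in RPKM in 4 of 4 WT libraries, although the ranges over libraries overlapped (9.61 to 11.8 and 6.65 to 10.9 RPKM). En1 stood above Otp in WT replicates 1, 2 and 4 and below it in WT replicate 3, so their order did not hold in every library. In KO, Otp (7.04 ± 1.55 RPKM) stood above En1 (6.25 ± 0.835 RPKM) on average, though not in KO replicate 3, and Foxd3 was at 7.52 ± 0.830 RPKM (SD, n = 4 each). The exon length of Foxp2 sums all annotated isoforms to 16346 bp, which lowers its value if only shorter isoforms were used.

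The genes most like each member across the 8 libraries were listed. Likeness was the root mean square difference of log2 CPM after each gene was centred on its own mean. It was searched over 11823 other genes of at least 5 CPM. The smallest of so many values is low by selection, so it is not a test. A gene that did not vary would score near the member's own SD of log2 CPM, 0.37 for En1, 0.34 for Foxd3 and 0.07 for Foxp4. En1 was most like Rtn4rl2 (0.09), Tlx3 (0.10) and Gsg1l (0.10), against a median of 0.36 over all genes searched. Foxd3 was most like Syt13 (0.08), Kif19a (0.09) and Inka2 (0.09), against a median of 0.33. Centring over all 8 libraries kept the difference between groups, so a gene picked as like Foxd3 tends to be lower in KO too. Syt13, a synaptotagmin gene, passed the edgeR test (log2 fold change −0.60, adjusted p = 0.00987), which is therefore no separate support for a lower Foxd3. Syt13 missed when KO replicate 3 or KO replicate 4 was left out (adjusted p = 0.0544 and 0.0519) or a muscle and mesenchyme covariate was added (adjusted p = 0.227). The nearest gene to Otp was Pax2, a paired-box factor of V1 and other inhibitory neurons, at 0.11 against a median of 0.33. The nearest genes to Foxp2, Foxp4, Sp8 and Nr5a2 were Slc43a2 (0.03), Keap1 (0.01), Adnp (0.05) and Sdk1 (0.12), against medians of 0.15, 0.11, 0.21 and 0.28.

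Genes that V1 neurons share with other inhibitory classes leaned the same way without passing. Of 7 such genes, edgeR, DESeq2 and limma-voom called 0, while 7 had a negative log2 fold change, as had 8285 of all 16068 genes tested, and 2 an unadjusted p under 0.05 in edgeR. Their median log2 fold change was −0.19 with all libraries, −0.32 without WT replicate 1 and −0.31 with limma-voom. Slc6a5, the neuronal glycine transporter, averaged 21.5 ± 2.84 CPM over WT and 16.8 ± 3.95 CPM over KO libraries. Pax2 averaged 53.9 ± 10.9 against 40.8 ± 7.23 CPM, Gad1, a GABA-synthesizing enzyme, 13.5 ± 2.55 against 10.3 ± 2.38 CPM, and the LIM factor Lhx1 95.2 ± 4.16 against 84.7 ± 9.53 CPM (WT against KO, SD, n = 4 each). Of 15 further factors known from V1 subsets, the 3 tools called 0, 11 were lower and 4 higher by sign (median −0.09), and 4 were lower and 0 higher at an unadjusted edgeR p under 0.05. These 4 were Lmo3, Onecut2, Onecut1 and Bhlhe22, with log2 fold changes of −0.22, −0.27, −0.32 and −0.19. Many of these genes are active in dorsal or other ventral neurons too, so they are not measures of V1 cells alone.

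Genes of the classes on either side of V1 were measured in the same fit. Like the other lists, theirs were chosen with earlier results of these data known, so counts within them are not independent support. Of 8 V2 genes, 3 rose, 0 fell and 5 did not pass, and 8 had a positive log2 fold change (median 0.57), as had 7783 of all 16068 genes tested. DESeq2 called 5 of the 8 higher, limma-voom 6 and edgeR without WT replicate 1 called 5. Of all genes, the main edgeR fit called 0.056% higher, DESeq2 0.077%, limma-voom 0.143%, and the fit without WT replicate 1 called 0.129%. Lhx3, which is shared with motor neurons, rose by 0.56 on the log2 scale, and Sox14 and Gata2, also expressed by V2 cells, by 0.82 and 0.58 (edgeR adjusted p between 0.0169 and 0.0351). Tal1, a V2b factor that blood cells use too, averaged 29.2 ± 1.15 CPM over WT and 36.3 ± 3.46 CPM over KO libraries (n = 4 each, SD) and did not pass (edgeR adjusted p = 0.168). None of the 3 calls held in every fit without 1 library. Sox14 and Gata2 passed only without WT replicate 1, and Lhx3 in the fits other than those that left out WT replicate 2 (adjusted p = 0.0681), WT replicate 4 (0.0622) and KO replicate 3 (0.0665). Sox14 and Gata2 also missed with the replicate block (edgeR adjusted p = 0.0764 and 0.0800), and all 3 missed with muscle and mesenchyme markers as a covariate (adjusted p = 1.00 each). Evx1 and Evx2, of the V0 class, had log2 fold changes of 0.84 and 0.74, and 0 of the 2 passed in edgeR (2 at an unadjusted p under 0.05), whereas DESeq2, limma-voom and edgeR without WT replicate 1 each called 2 higher. Of 8 progenitor genes of p1 and its neighbours, the 3 tools called 0, and in edgeR 1 was higher and 0 lower at an unadjusted p under 0.05, while edgeR without WT replicate 1 called 1 higher, in both cases Dbx1. Dbx1, a homeobox gene of p0 progenitors, averaged 16.1 ± 2.52 CPM over WT and 19.3 ± 1.22 CPM over KO libraries (n = 4 each, SD), and Nkx6-1, Nkx6-2 and Pax6 had log2 fold changes of 0.11, 0.29 and −0.10.

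**Figure D3:**
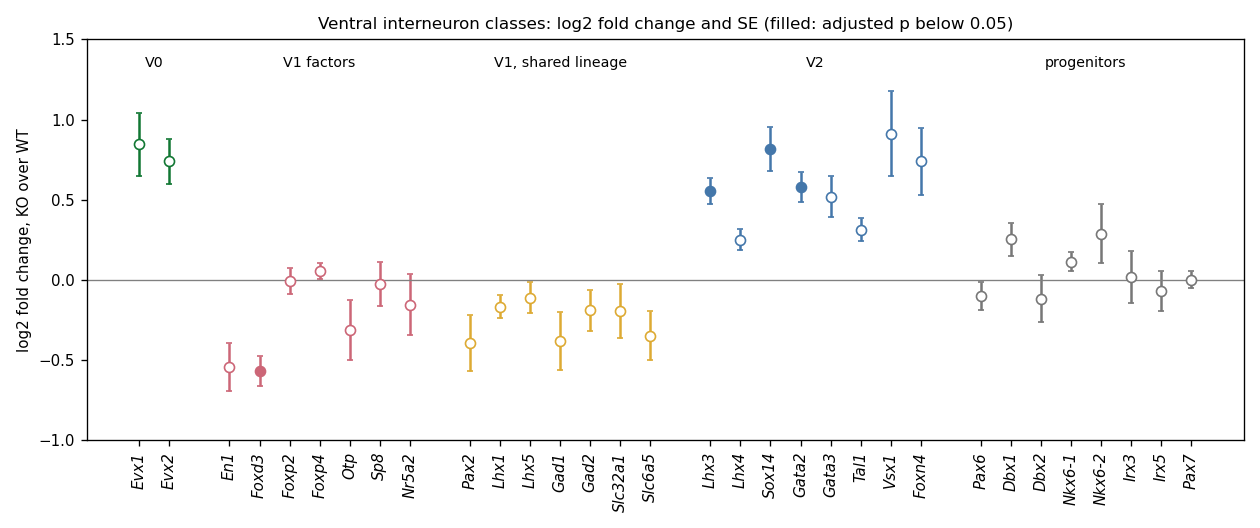
Log2 fold change, KO over WT, with SE, of genes of the V0 class, the V1 factors, genes shared by V1 and other inhibitory neurons, the V2 class and progenitors. Filled points passed the edgeR test: Foxd3 (−0.57) below 0, and Lhx3 (0.56), Sox14 (0.82) and Gata2 (0.58) above 0.

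Ratios of En1 counts to counts of a gene of a neighbouring class within the same library do not depend on library scaling. In bulk tissue they compare genes and are not ratios of V1 to V0 or V2b cells. In replicate order, the log2 ratio of En1 to Gata3, a V2b gene, came to 1.59, 1.62, 1.61 and 1.88 for the WT libraries and 0.69, 0.61, 0.84 and 0.34 for the KO libraries. Every KO library lay below every WT library, and WT replicate 1 lay close to WT replicates 2 and 3. The mean difference was −1.05 (two-sided exact permutation p = 0.0286, the smallest that 4 against 4 libraries can give), which did not pass 0.05 once adjusted over 2 ratios (0.0571). The log2 ratio of En1 to Evx1 was 1.07, 2.54, 2.42 and 2.37 in WT and 0.72, 1.08, 0.64 and 0.16 in KO, where WT replicate 1 lay within the KO range (mean difference −1.45, two-sided exact permutation p = 0.0571, and 0.0571 adjusted over the 2). These ratios combine a lower En1 with a higher partner gene and do not measure either alone. Evx1 and Gata3 each had every KO library above every WT library in CPM (1.69% of all tested genes). Both come from lists chosen with earlier results of these data known, and the adjustment covers only these 2 ratios. The p-values therefore describe the ratios and are no independent support for a lower En1.

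**Figure D4:**
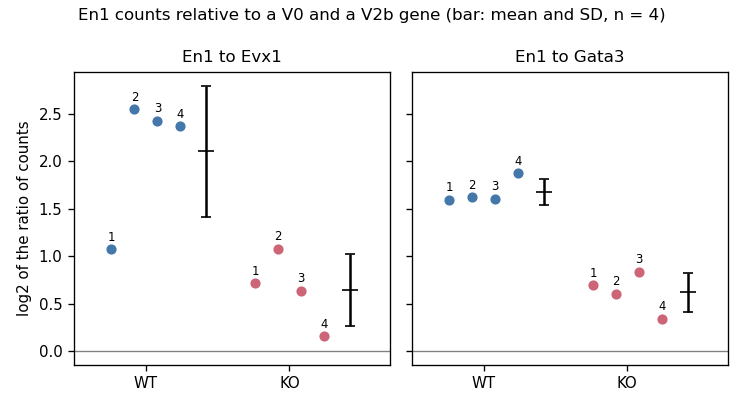
Log2 of the ratio of En1 counts to counts of Evx1 (V0) and Gata3 (V2b) in each library (points, with replicate number), with mean and SD (n = 4) as bars. For Gata3 all KO libraries (0.34 to 0.84) lie below all WT libraries (1.59 to 1.88), and for Evx1 WT replicate 1 (1.07) lies beside KO replicate 2 (1.08).

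Markers of other cells that can express a member were measured in the same libraries. Of 7 neural crest and glia markers, which bear on Foxd3, edgeR called 0 (1 lower and 1 higher at an unadjusted p under 0.05), while DESeq2 and limma-voom each called 1 higher, with summed levels of 580 to 679 CPM in WT and 570 to 662 CPM in KO. With their mean log2 CPM as a covariate, edgeR called Foxd3 (log2 fold change −0.65, adjusted p = 0.00101) and En1 (−0.72, adjusted p = 0.00039) lower, in a fit that called 1.43% of all genes lower and 0.261% higher. Of 7 sensory neuron markers, 3 fell and 0 rose, and their summed level was 293 to 422 CPM in WT, lowest in WT replicate 1, and 268 to 299.6 CPM in KO. The part of the sensory neurons in the Foxd3 result was not tested.

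Rostral brain markers, which bear on En1, were near 0, with Otx1, Otx2 and En2 summing to 0.178 to 0.517 CPM in WT and 0.375 to 0.761 CPM in KO. Skeletal muscle and dermomyotome markers summed to 517 to 604 CPM in WT and 569 to 775 CPM in KO, and mesenchyme markers to 1849 to 2519 and 2395 to 2699 CPM, with 0 of 7 and 0 of 8 called by edgeR, DESeq2 or limma-voom (4 and 0 higher at an unadjusted edgeR p under 0.05). By sign, 6 of the 7 and 8 of the 8 were higher in KO (7783 of all 16068 genes tested), so their mean partly follows genotype. With the mean log2 CPM of these 15 markers as a covariate the log2 fold changes of En1 and Foxd3 were −0.47 and −0.61. Neither passed (edgeR adjusted p = 0.99998 and 0.875), in a fit that called 0.00622% of all genes lower, Prdm12 alone, and 0% higher. The SE rose from 0.15 to 0.25 for En1 and from 0.09 to 0.16 for Foxd3. Why the calls were lost was not tested. Surface epithelium markers summed to 42.2 to 72.2 CPM in WT and 38.5 to 66.8 CPM in KO, with 0 of 7 called by the 3 tools (0 at an unadjusted edgeR p under 0.05).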

How the data were processed

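RNA-seq libraries of 4 WT and 4 KO samples, grouped by the genotype in the labels, were used. The deposited files hold raw read counts per Ensembl gene, 1 file per library, per the file contents. The submitters' processing notes list build mm10 and DESeq2 1.8.2, featureCounts 1.4.6-p1, STAR 2.3.0e, FastQC 0.10.1 and SAMtools 0.1.18. Their settings, annotation and strand use were not given in the sources used here, so reads of overlapping genes on opposite strands cannot be told apart. The 5 summary rows held 0 counts and were left out. Symbols, coordinates and exon lengths came from GENCODE M21 (GRCm38, the assembly of mm10), in which 36602 of 38355 identifiers matched.

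Tests on the counts used R 4.3.3 and edgeR 4.0.16 (TMM factors of 0.991 to 1.01 after filterByExpr, robust quasi-likelihood F test on group, Benjamini-Hochberg adjustment, threshold 0.05). Each SE was computed as the absolute log2 fold change over the root of its F statistic. The fit was tested on simulated data. CPM use TMM-adjusted totals, and log2 CPM a prior count of 2. No 2 libraries of a group agreed within sampling noise, and since the labels do not say that libraries are separate embryos, p-values measure only library spread, which may be technical. Alternatives were library totals, upper quartile scaling, DESeq2 1.42.0, limma-voom (limma 3.58.1), other filters, a replicate block, marker scores as covariates and leaving out each library. Named were the members, Prdm12, up to 4 genes of a background list by smallest p, neighbours within 50 kb of at least 1 CPM, and the genes most like each member. Foxp1 and Nr5a1 were named outside this rule. Evx1 and Gata3 were the partners in the ratios. Some items are not reported here. The members and lists were chosen with earlier results of these data known. The motor neuron marker Slc18a3 was not analysed here.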

Additional observations from a re-analysis of the deposited data

Results flagged for a closer look

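Among 20 groups of 4 values checked (7 members, Prdm12 and 2 ratios of En1, in WT and in KO), 3 held a library far from the other 3 by Dixon's test. Chance flags about 1 in 20 such groups. Foxd3 in WT replicate 1 was 22.3 CPM, below 26.8 to 27.5 CPM in the other WT libraries. The log2 ratio of En1 to Evx1 in WT replicate 1 was 1.07, below 2.37 to 2.54 in the others. The log2 ratio of En1 to Gata3 in WT replicate 4 was 1.88, above 1.59 to 1.62 in the others.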

How the results depend on the processing

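The count of V1 members called lower, 1 with all 8 libraries, was 2 (En1 and Foxd3) with DESeq2, limma-voom or the crest and glia score as covariate, and 0 with the replicate block or a covariate for muscle and mesenchyme. It ranged from 0 to 2 when 1 library was left out: 2 without WT replicate 1, and 0 without any other. The count called higher was 0 in every alternative. The cause of these changes was not tested. With the replicate block, Foxd3 had a log2 fold change of −0.57 (edgeR adjusted p = 0.0990), and the block lowered the calls over all genes from 39 lower and 9 higher to 14 and 2. Deviations of same-numbered WT and KO libraries correlated across genes at −0.11, 0.28, −0.19 and −0.01. WT replicate 2 correlated best with KO replicate 2, and each other WT library with a KO library of another number. These correlations cannot decide whether shared numbers mark pairs, which the labels do not say. Over all genes 83 lower and 20 higher were called by DESeq2, 102 and 23 by limma-voom, 58 and 13 with no low-count filter, 230 and 42 with the crest and glia score, 1 and 0 with the muscle and mesenchyme score, and 112 and 21 without WT replicate 1.

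En1, Foxd3, Otp, Nr5a2 and Foxp4 kept the sign of their log2 fold change in all 17 alternatives. Foxp2 turned positive with library totals (0.00401) and upper quartile scaling (0.00660), and ranged from −0.0668 to 0.0648 with 1 library left out. Sp8 turned positive with limma-voom (0.11), the muscle and mesenchyme score (0.34) and the crest and glia score (0.13), and ranged from −0.11 to 0.13 with 1 library left out. With 1 library left out, the mean difference in the log2 ratio of En1 lay between −1.13 and −0.96 for Gata3 and between −1.80 and −1.29 for Evx1. Nr5a2, at 73 to 170 counts a library, is the member whose depth limits precision most.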

Other observations

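Paralogues of the V1 factors were also measured. Sp9, the close relative of Sp8, had 5.91, 5.50, 6.55 and 6.87 CPM in the WT libraries and 3.90, 4.20, 3.86 and 4.50 CPM in the KO libraries, in replicate order, with no overlap, whereas the Sp8 groups overlapped. Sp9 had a log2 fold change of −0.59 and missed the threshold in edgeR (adjusted p = 0.0541), while DESeq2, limma-voom and the edgeR fit without WT replicate 1 each called 1 paralogue lower, Sp9, and 0 higher. En2, the relative of En1, went the other way, averaging 0.286 ± 0.140 CPM over WT and 0.538 ± 0.120 CPM over KO libraries. Its log2 fold change was 1.03 (edgeR adjusted p = 0.623, unadjusted p = 0.0156), and it rests on 6 to 18 counts a library. Foxp1, a FOXP gene of limb motor neurons and V1 cells, averaged 137.6 ± 1.76 CPM over WT and 137.6 ± 4.44 CPM over KO libraries (n = 4 each, SD). Nr5a1, the relative of Nr5a2 that marks adrenal and gonadal cells, was at 3.76 CPM in KO replicate 4 and between 0.0352 and 0.45 CPM in the other 7 libraries, and was not tested because it did not pass the filter on low counts. Nr5a1 was chosen after its values were seen.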
